A study of Oryza sativa with 9 samples.

Results

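This comparison set mutant line 1 of the rice double mutant osatxr5c;osatxr6kd against wild type (WT), labelled NP in the titles, across the leaf transcriptome. It used 6 of the 9 libraries of the series, 3 of mutant line 1 and 3 of WT, chosen by their titles; the 3 libraries of a further mutant line took no part in the test. All 6 came from leaves of paddy-grown plants at an age of 40 days, and the groups differ in the labels by genotype alone. The labels do not say what the letters in the genotype stand for, whether the line goes back to a single transformed plant, or whether a replicate is a separate plant, so p-values measure only the spread between these libraries.

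ATXR5 and ATXR6 are plant enzymes that add a single methyl group to H3K27, a lysine of histone H3. In Arabidopsis they act as chromatin is copied, and their loss lifts the silencing of transposons and repeats and disturbs DNA replication in heterochromatin. Polycomb complexes add further methyl groups to the same lysine, which marks repressed genes. The labels state the aim as testing what these enzymes do in a plant other than Arabidopsis.

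Values are the authors' TPM, a length-normalised transcript abundance scaled to the same total in every library, so the depth behind them is unknown. Changes are differences of mean log2(TPM + 1), mutant line 1 minus WT, tested with limma and adjusted over all 19204 genes whose mean reached 1 TPM. This scale understates the change of genes with low TPM. A gene is called higher or lower at an adjusted p under 0.05. The table holds identifiers only; names are given for 271 loci whose name also stands in a rice gene table, grouped by function, and 208 of them passed the level filter.

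The leaf identity of the material showed in both groups. The 4 named light-harvesting genes summed to 19781 to 19919 TPM in mutant line 1, against 21860 to 23429 TPM in WT, and the 5 named carbon fixation genes to 59935 to 66994 TPM, against 64658 to 68797 TPM. Rubisco activase alone, RCA (LOC_Os11g47970), reached 36948, 44749 and 39071 TPM in mutant line 1, against 46301, 43555 and 42712 TPM in WT, with overlapping groups. The 3 named endosperm genes summed to at most 5.70 TPM in mutant line 1, against at most 7.70 TPM in WT. The 21 named floral genes are 20 MADS-box genes and 1 YABBY gene, DL (LOC_Os03g11600). Of the 21, 10 were listed at 0 in all 6 libraries, but 8 passed the level filter. OsMADS1 (LOC_Os03g11614) had a mean of 19.6 TPM in mutant line 1 and 20.9 TPM in WT. The means of OsMADS16 (LOC_Os06g49840) were 10.4 and 13.3 TPM. OsMADS55, of the group of SVP, a repressor of flowering in Arabidopsis, had means of 210 and 324 TPM. The part that other organs or cell types took in the results was not tested, and in bulk leaf RNA fewer cells of a type and less RNA per cell cannot be told apart. Libraries listed 22170 to 22223 genes above 0 in mutant line 1, against 21798 to 21885 in WT, and the lowest non-zero value was 0.319 TPM.

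Mutant line 1 differed from WT in many genes by a little and in fewer by a lot, and the large changes were mostly rises. Of the 19204 genes, 4178 (21.8%) passed the threshold, 1724 higher (8.98%) and 2454 lower (12.8%), with a median absolute change of 0.49 and a median standard error of 0.11 over all genes. Rises of at least 1 log2 unit numbered 578 (3.01%), and falls of that size numbered 85 (0.443%), so that 87.2% of the large changes were rises. Rises of at least 2 numbered 170, and falls of at least 2 numbered 4. In 77 of the 578 large rises the gene was listed at 0 in all 3 WT libraries. In 2 of the 85 large falls it was listed at 0 in all 3 libraries of mutant line 1. These 77 and 2 were all the tested genes so listed. They passed the level filter only through the group where they were high, so a large change of each was nearly fixed by the filter. In 392 of the large rises every WT library was above 1 TPM.

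The split of the small changes moved with the scaling of the libraries. Over all genes the median change was -0.06 in the deposited values. Median-ratio scaling brought it to -0.01, and then 2065 genes were higher and 1587 lower, so that 56.5% of the called genes were higher, beside 41.3% without it. Without replicate 3 of mutant line 1 the genes called lower numbered 1461, and without replicate 2 of WT they numbered 1573. The large changes kept their split, with rises making up 79.1% to 89.9% of them over the 14 alternative settings. On the plot of change against level, the large rises stand at every level and a straight upper edge is formed by genes listed at 0 in WT.

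**Figure D1:**
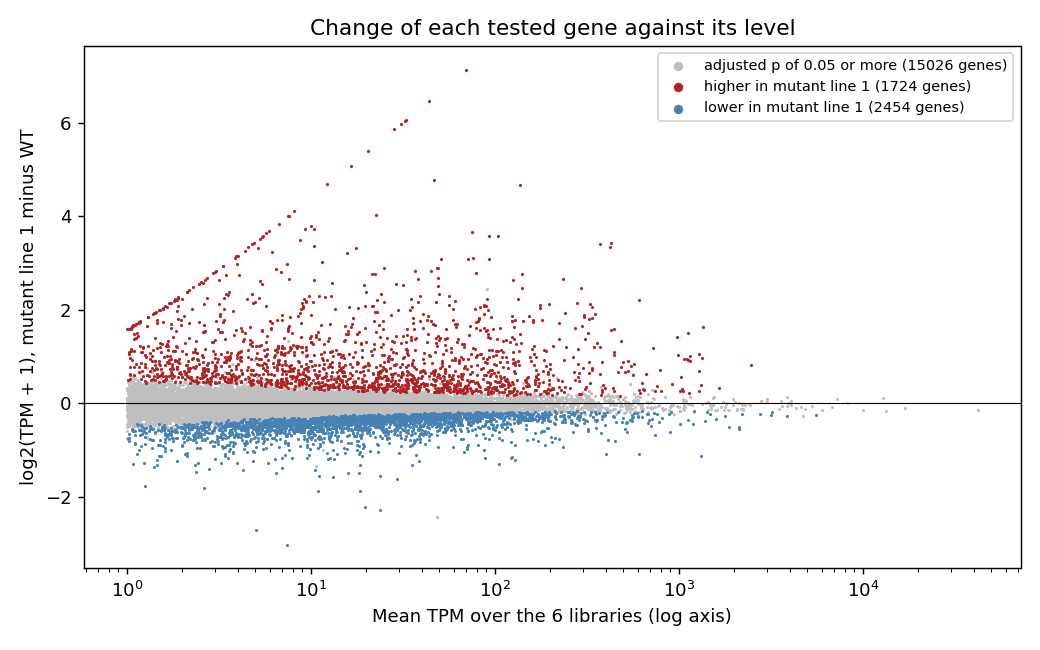
Each point is one of 19204 tested genes: the vertical axis is the difference of mean log2(TPM + 1), mutant line 1 minus WT, and the horizontal axis is the mean TPM over the 6 libraries on a log scale. Red points are the 1724 genes called higher in mutant line 1 and blue points the 2454 called lower; most points beyond 1 log2 unit are red.

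Large rises were found at every level of expression and on every chromosome. Their share was 3.80% among the 3264 genes with a mean of 1 to 3 TPM, 1.83% among the 5631 genes between 10 and 30 TPM, and 6.29% among the 429 genes of 300 TPM or more. Over the 12 chromosomes it lay between 2.36% and 3.55%, while 19.9% to 22.9% of the tested genes of a chromosome were called.

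Gene by gene, the largest rises were of loci with no named function here. LOC_Os02g53240 had 136, 144 and 138 TPM in mutant line 1 and was listed at 0 in each WT library. LOC_Os12g30550 had 93.3, 79.3 and 89.4 TPM in mutant line 1 and was also listed at 0 in each WT library. Among genes above 1 TPM in every WT library, LOC_Os04g23550 rose most, with 96.4, 85.0 and 92.6 TPM in mutant line 1, against 2.01, 3.61 and 1.78 TPM in WT (change 4.77, SE 0.16, adjusted p = 5.36e-10). LOC_Os07g03040 came next, with 259, 269 and 266 TPM in mutant line 1, against 10.3, 10.3 and 8.21 TPM in WT (change 4.66, SE 0.09, adjusted p = 2.82e-12). The largest falls with separate groups were smaller. LOC_Os02g52730 had 0.691, 0.498 and 0.583 TPM in mutant line 1, against 10.3, 9.47 and 8.70 TPM in WT (change -2.72), and LOC_Os10g09990 had 6.05, 8.82 and 7.50 TPM, against 44.1, 38.8 and 36.6 TPM (change -2.28).

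The highest median changes were those of the DREB genes (2.24), the WRKY genes (2.20), the heat shock proteins (1.42), the jasmonate genes (0.57), the abscisic acid and dehydration genes (0.27) and the iron genes (0.25). Groups for photosynthesis, the clock, flowering time, gene silencing and DNA replication had median changes within 0.20 of 0, beside -0.06 over all genes. Groups with a median below -0.30 were the floral genes, the diterpenoid phytoalexin genes and the cellulose synthases. Over all 208 named genes tested, 42 were called higher, beside 8.98% of all genes, and 40 lower, beside 12.8%. Their median change was -0.03. The members and groups were chosen with earlier results of these data known, so these counts describe the groups and do not set them apart from other genes.

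**Figure D2:**
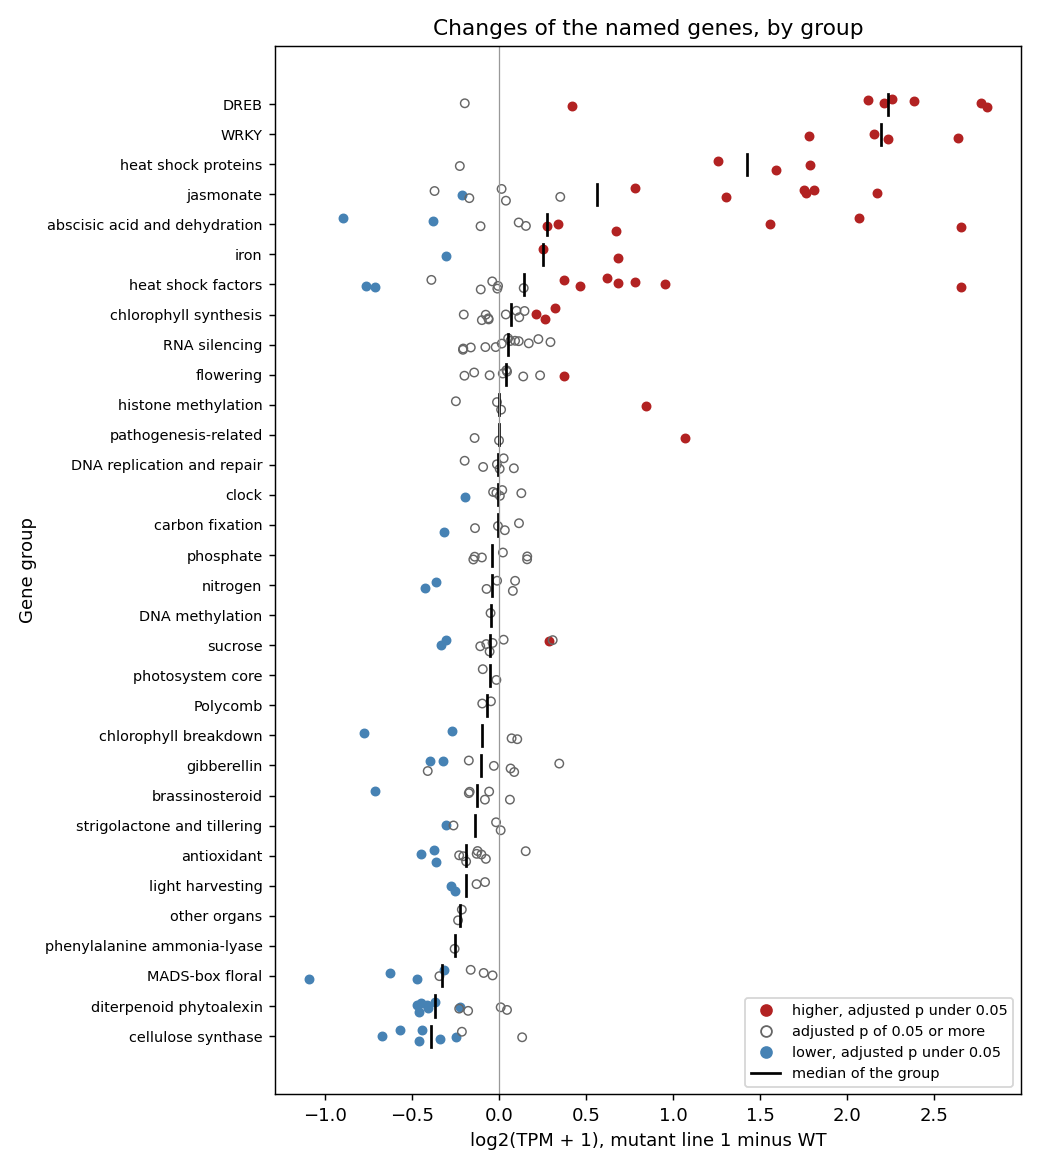
Each point is a named gene that passed the level filter, placed by its difference of mean log2(TPM + 1), mutant line 1 minus WT; rows are gene groups sorted by their median, drawn as a black bar. The DREB and WRKY groups stand near 2.2, and the lowest medians, of the cellulose synthases and the diterpenoid phytoalexin genes, lie at -0.39 and -0.37.

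The DREB1 genes, which encode AP2/ERF transcription factors that switch on cold and drought response genes, rose strongly in mutant line 1. Of 7 named DREB1 genes, 6 passed the level filter and were higher by more than 2 log2 units. DREB1A (LOC_Os09g35030), an inducer of cold tolerance genes, had 246, 238 and 250.2 TPM in mutant line 1, against 37.8, 34.7 and 32.8 TPM in WT (change 2.77, SE 0.07, adjusted p = 4.28e-11). DREB1B (LOC_Os09g35010) had 555, 511 and 545 TPM in mutant line 1, against 141, 117 and 113 TPM in WT (change 2.12, SE 0.08, adjusted p = 1.76e-09). For both genes every library of mutant line 1 lay above every WT library, as in 14.0% of all tested genes. Mean TPM was 6.96 times the WT mean for DREB1A and 4.35 times for DREB1B.

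The less abundant DREB1 genes rose too. DREB1G (LOC_Os02g45450) had 12.2, 12.6 and 13.7 TPM in mutant line 1, against 1.38, 1.03 and 0.609 TPM in WT (change 2.80, SE 0.15, adjusted p = 3.57e-08). DREB1E (LOC_Os04g48350) had 34.3, 35.7 and 32.5 TPM in mutant line 1, against 7.14, 4.90 and 5.33 TPM in WT (change 2.39, SE 0.12, adjusted p = 1.90e-08). DREB1H (LOC_Os09g35020) and DREB1C (LOC_Os06g03670) changed by 2.21 and 2.26. DREB1F (LOC_Os01g73770) stayed under the level filter, with at most 0.548 TPM. The DREB2 branch of the family is known from the response to drought and heat. DREB2B (LOC_Os05g27930) had 61.7, 61.9 and 61.0 TPM in mutant line 1, against 46.6, 45.5 and 45.3 TPM in WT (change 0.42, SE 0.06, adjusted p = 4.81e-04), and DREB2A (LOC_Os01g07120), with a change of -0.20, did not pass (adjusted p = 0.36). In all, 7 of the 8 tested DREB genes were higher, beside 8.98% of all genes, and none was lower, with a median of 2.24, and all 7 passed in every alternative.

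All 4 named WRKY genes were called higher, beside 8.98% of all genes, but 13 were listed. The others could not be named from the rice gene table. WRKY proteins are zinc finger transcription factors of defence and stress signalling, and WRKY62 (LOC_Os09g25070), WRKY71 (LOC_Os02g08440) and WRKY76 (LOC_Os09g25060) belong to a subgroup known in rice for tuning resistance to blight and blast. WRKY76 had 242, 177 and 235 TPM in mutant line 1, against 37.4, 34.9 and 29.7 TPM in WT (change 2.64, SE 0.12, adjusted p = 6.41e-09). WRKY62, whose identifier directly follows that of WRKY76, had 45.9, 37.4 and 41.4 TPM in mutant line 1, against 9.57, 7.10 and 9.10 TPM in WT (change 2.15, SE 0.11, adjusted p = 3.52e-08). Both neighbours stood above every WT library in each library of mutant line 1. WRKY24 (LOC_Os01g61080), known as a repressor of gibberellin and abscisic acid signalling in aleurone cells, had 205, 236 and 219 TPM in mutant line 1, against 53.6, 43.3 and 41.3 TPM in WT (change 2.24, SE 0.09, adjusted p = 4.76e-09). WRKY71 had 272, 290.0 and 281 TPM in mutant line 1, against 86.9, 76.6 and 79.8 TPM in WT (change 1.78, SE 0.07, adjusted p = 1.27e-09). The groups were apart for all 4 genes, beside 14.0% of all tested genes with all 3 libraries of mutant line 1 above all WT libraries.

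**Figure D3:**
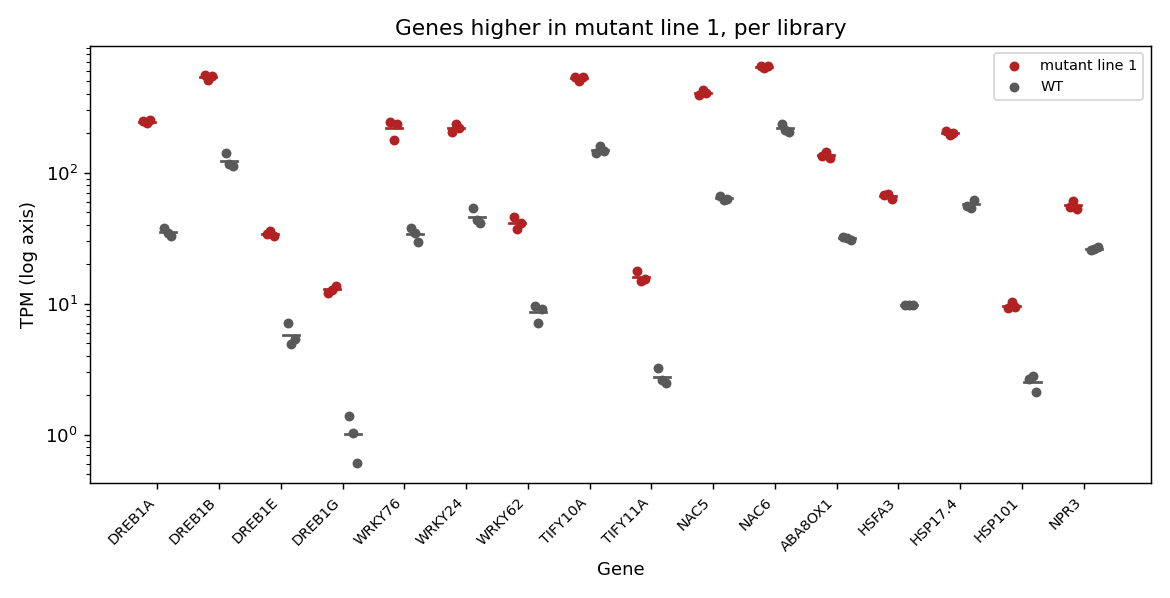
TPM of 16 named genes called higher, on a log axis, with the 3 libraries of mutant line 1 in red to the left of the 3 WT libraries in grey and a bar at each mean. For every gene shown all red points lie above all grey points, as in 14.0% of all tested genes. They range from HSP101 at 9.23 to 10.2 TPM against 2.13 to 2.81 TPM, to NAC6 at 625 to 653 TPM against 206 to 235 TPM.

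Of 8 tested genes for TIFY (JAZ) repressors of jasmonate signalling 5 rose, and of 3 genes that make the hormone 1 rose. Jasmonate is the hormone of wounding and insect attack; TIFY proteins hold its response off and are themselves induced by it. Of 12 tested jasmonate genes 6 were higher, beside 8.98% of all genes, and 1 was lower, beside 12.8%, with a median of 0.57. TIFY11A (LOC_Os03g08310) had 17.7, 14.8 and 15.5 TPM in mutant line 1, against 3.22, 2.61 and 2.49 TPM in WT (change 2.17, SE 0.12, adjusted p = 4.16e-08). TIFY10A (LOC_Os03g28940), the most abundant of the group, had 538, 498 and 537 TPM in mutant line 1, against 141, 159 and 146 TPM in WT (change 1.81, SE 0.06, adjusted p = 9.06e-10). Both genes stood above every WT library in each library of mutant line 1, as did 14.0% of all tested genes. TIFY11D (LOC_Os10g25290) and TIFY11B (LOC_Os03g08330) changed by 1.77 and 1.75, and TIFY11C (LOC_Os03g08320) by 1.30. Other members did not pass. TIFY10B (LOC_Os07g42370) had 207, 199 and 205 TPM in mutant line 1, against 216, 197 and 193 TPM in WT (adjusted p = 0.90), with overlapping groups, and TIFY10C (LOC_Os09g26780) changed by -0.37 (adjusted p = 0.16).

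Among the enzymes of jasmonate synthesis, the allene oxide synthase gene AOS2 (LOC_Os03g12500) rose, with 11.1, 13.9 and 12.5 TPM in mutant line 1, against 7.78, 7.01 and 5.89 TPM in WT (change 0.78, SE 0.12, adjusted p = 5.36e-04). Allene oxide cyclase, AOC (LOC_Os03g32314), had 32.9, 37.0 and 31.0 TPM, against 32.0, 32.8 and 33.2 TPM, and the oxophytodienoate reductase gene OPR7 (LOC_Os08g35740) changed by -0.17; neither passed. The receptor gene COI1B (LOC_Os05g37690) was called lower by a small margin, at a change of -0.22 (adjusted p = 0.039), and lost the call after median-ratio scaling and when any of replicates 1 and 3 of mutant line 1 or 2 and 3 of WT was left out, with an adjusted p of up to 0.167.

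Stress-linked NAC factors and an abscisic acid breakdown enzyme rose. Abscisic acid is the hormone of water deficit; NCED enzymes make it and ABA8OX enzymes break it down. NAC5 (LOC_Os11g08210) and NAC6 (LOC_Os01g66120) encode transcription factors that raise tolerance to salt and drought in rice. NAC5 had 393, 426 and 403 TPM in mutant line 1, against 66.4, 61.8 and 63.0 TPM in WT (change 2.66, SE 0.06, adjusted p = 2.44e-11). NAC6 had 647, 625 and 653 TPM in mutant line 1, against 235, 213 and 206 TPM in WT (change 1.56, SE 0.06, adjusted p = 2.77e-09). ABA8OX1 (LOC_Os02g47470) had 133, 143 and 129.8 TPM in mutant line 1, against 32.1, 31.7 and 30.7 TPM in WT (change 2.07, SE 0.07, adjusted p = 4.74e-10). All libraries of mutant line 1 lay above all WT libraries for these 3 genes, as in 14.0% of all tested genes.

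The other called genes of the group moved in both directions. NCED3 (LOC_Os03g44380), which makes a precursor of abscisic acid, was lower, with 0.968, 1.01 and 1.26 TPM in mutant line 1, against 3.97, 2.07 and 2.76 TPM in WT (change -0.90, SE 0.18, adjusted p = 0.0036). ABA8OX2 (LOC_Os08g36860), a further breakdown enzyme, changed by -0.38, and ABA8OX3 (LOC_Os09g28390) by 0.27; both passed, in opposite directions. The dehydrin DHN1 (LOC_Os02g44870), a protective protein of drying and cold tissue, had 223, 241 and 251 TPM in mutant line 1, against 157, 148 and 143 TPM in WT (change 0.67, SE 0.07, adjusted p = 1.06e-05). Of the genes for other dehydration proteins, RAB16B (LOC_Os11g26780), RAB16D (LOC_Os11g26750) and LEA3 (LOC_Os05g46480) were listed at 0 in all 6 libraries, where a 0 may be a missing estimate. RAB16C (LOC_Os11g26760), at 4.46, 6.67 and 6.11 TPM against 5.27, 4.43 and 5.91 TPM in WT, did not pass. In all, 6 of 11 tested abscisic acid and dehydration genes were higher, beside 8.98% of all genes, and 2 were lower, near the 12.8% of all genes, with a median of 0.27. The transcription factor gene bZIP23 (LOC_Os02g52780) was the 1 rise not called in every alternative; it did not pass without replicate 3 of mutant line 1, replicate 2 of WT or replicate 3 of WT, with an adjusted p of up to 0.081.

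Heat shock factors, the transcription factors that switch on chaperone genes, moved in both directions. Of 15 tested, 7 were higher, beside 8.98% of all genes, and 2 were lower, near the 12.8% of all genes, with a median of 0.14. Of the 7 rises 5 passed in every alternative. HSFB1 (LOC_Os09g28354) was not called without replicate 3 of mutant line 1 (adjusted p = 0.068). HSFB2B (LOC_Os08g43334) was not called without that library or without replicate 2 of WT (adjusted p up to 0.074). HSFA3 (LOC_Os02g32590) had the largest change, with 67.1, 68.8 and 63.4 TPM in mutant line 1, against 9.69, 9.73 and 9.69 TPM in WT (change 2.65, SE 0.08, adjusted p = 1.63e-10). HSFB2A (LOC_Os04g48030) had 59.4, 49.3 and 53.0 TPM in mutant line 1, against 31.3, 24.8 and 26.2 TPM in WT (change 0.95, SE 0.10, adjusted p = 1.77e-05). HSFA2D (LOC_Os03g06630), the most abundant, had 874, 729 and 825 TPM in mutant line 1, against 554, 495 and 527 TPM in WT (change 0.62, SE 0.07, adjusted p = 5.21e-05). For these 3 genes all libraries of mutant line 1 lay above all WT libraries, as in 14.0% of all tested genes. HSFA4D (LOC_Os05g45410), the gene of the spotted leaf mutant spl7, changed by 0.78 and HSFA2C (LOC_Os10g28340) by 0.68. The class C members HSFC2A (LOC_Os02g13800) and HSFC1A (LOC_Os01g43590) were lower, at -0.77 and -0.71; HSFC1A was not called without replicate 1 or 3 of mutant line 1 or replicate 1 of WT (adjusted p up to 0.053). HSFA1 (LOC_Os03g63750), of the class that acts as a master switch in tomato, had 53.7, 64.0 and 56.4 TPM, against 59.5, 65.8 and 61.8 TPM in WT, and did not pass.

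Of the 4 heat shock proteins tested 3 rose, beside 8.98% of all genes, and all 3 passed in every alternative. These chaperones keep damaged proteins soluble or refold them. HSP17.4 (LOC_Os03g16020) had 207, 194 and 199 TPM in mutant line 1, against 55.7, 54.1 and 62.2 TPM in WT (change 1.79, SE 0.07, adjusted p = 2.10e-09). HSP101 (LOC_Os05g44340), a disaggregase needed for acquired heat tolerance, had 9.23, 10.2 and 9.44 TPM in mutant line 1, against 2.67, 2.81 and 2.13 TPM in WT (change 1.59, SE 0.12, adjusted p = 8.96e-07). HSP18.1 (LOC_Os03g16030) changed by 1.26. HSP17.9A (LOC_Os03g15960), a small heat shock protein gene with a nearby identifier on the same chromosome, had 18.3, 15.9 and 20.7 TPM, against 24.6, 18.4 and 21.8 TPM in WT, and did not pass.

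Some of the rises stood next to each other. Runs of at least 3 neighbouring tested identifiers that all rose by at least 1 were found 10 times, with 31 genes in all, and no such run fell. Large falls made up 0.443% of all tested genes, against 3.01% for large rises, so few falling runs could form. The lack of them is therefore no result about neighbours. On chromosome 3, TIFY11A, TIFY11C and TIFY11B formed a run, with changes of 1.30 to 2.17. On chromosome 9, DREB1B, DREB1H and DREB1A formed a run, with changes of 2.12 to 2.77. HSP17.4 and HSP18.1 made another on chromosome 3, together with the unnamed LOC_Os03g16040. The longest, of 4 genes, ran from LOC_Os11g31420 to LOC_Os11g31470 on chromosome 11, with changes of 1.54 to 2.09. Neighbouring copies of a gene can share reads, and how the authors' counting treated such reads is not given in the sources used here, so the members of a run may not be separate measurements.

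Of 3 tested pathogenesis-related genes 1 was called higher, beside 8.98% of all genes, and none lower. Of 3 tested iron genes 2 were called higher, and 1 was called lower, beside 12.8% of all genes. NPR3 (LOC_Os03g46440), a relative of the salicylic acid receptor NPR1, had 54.4, 60.9 and 53.0 TPM in mutant line 1, against 25.6, 26.0 and 26.9 TPM in WT (change 1.07, SE 0.08, adjusted p = 5.82e-07). The defence protein gene PBZ1 (LOC_Os12g36880), a marker of the response to blast fungus, had 921, 751 and 867 TPM, against 957, 926 and 907 TPM, and the chitinase gene Cht1 (LOC_Os06g51060) 9.10, 9.10 and 8.92 TPM, against 9.72, 8.69 and 8.74 TPM; neither passed. IRO3 (LOC_Os03g26210), a transcription factor of iron deficiency, had 48.1, 54.7 and 49.2 TPM in mutant line 1, against 26.6, 31.8 and 35.6 TPM in WT (change 0.68, SE 0.10, adjusted p = 3.77e-04). The 2 other iron genes tested were called by a small margin: VIT2 (LOC_Os09g23300), a vacuolar iron transporter, changed by 0.25 (adjusted p = 0.043), and NAS3 (LOC_Os07g48980), which makes the iron chelator nicotianamine, by -0.30 (adjusted p = 0.041). VIT2 lost its call without any 1 library other than replicate 1 of WT, with an adjusted p of up to 0.155, and NAS3 without any 1 library other than replicate 2 of WT, with an adjusted p of up to 0.119. The nicotianamine synthase genes NAS1 (LOC_Os03g19427) and NAS2 (LOC_Os03g19420) and the transporter gene YSL15 (LOC_Os02g43410) were listed at 0 in all 6 libraries.

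Genes of the floral group, which includes OsMADS55 and OsMADS22 of the SVP group, were lower where they changed. Of the 21 named, 8 passed the level filter, each of them a MADS-box gene, and of these 4 were lower, beside 12.8% of all genes, and none higher, with a median of -0.33; all 4 passed in every alternative. The 13 others stayed at or below 0.964 TPM, and the 21 together summed to 593 to 631 TPM in mutant line 1, against 774 to 822 TPM in WT. OsMADS15 (LOC_Os07g01820), which like OsMADS14 (LOC_Os03g54160) belongs to the group that turns a shoot tip into an inflorescence, had 0.914, 0.75 and 1.25 TPM in mutant line 1, against 3.52, 2.91 and 3.12 TPM in WT (change -1.09, SE 0.15, adjusted p = 2.03e-04). OsMADS14 had 59.3, 51.6 and 55.4 TPM in mutant line 1, against 73.3, 77.7 and 80.2 TPM in WT (change -0.47, SE 0.07, adjusted p = 5.57e-04). For both genes every library of mutant line 1 lay below every WT library, as in 24.2% of all tested genes. OsMADS55 (LOC_Os06g11330), of the group of SVP, a repressor of flowering in Arabidopsis, had 217, 187 and 227 TPM in mutant line 1, against 338, 322 and 312 TPM in WT (change -0.63, SE 0.07, adjusted p = 5.57e-05), and its relative OsMADS22 (LOC_Os02g52340) changed by -0.32. OsMADS18 (LOC_Os07g41370), a further relative of OsMADS14, had 215, 226 and 212 TPM, against 205, 261 and 271 TPM in WT, and did not pass.

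Genes for diterpenoid phytoalexins, the antimicrobial compounds rice makes from clustered genes, were lower by a modest amount. Of 11 tested, 7 were lower and none higher, with a median of -0.37, beside 12.8% of all genes called lower. CPS2 (LOC_Os02g36210), the cyclase at the entry to the phytocassane branch, had 126, 138 and 131 TPM in mutant line 1, against 181, 162 and 168 TPM in WT (change -0.37, SE 0.07, adjusted p = 0.0015). KSL6 (LOC_Os02g36264), a kaurene synthase-like enzyme of the same chromosome 2 cluster, had 50.8, 48.9 and 51.5 TPM in mutant line 1, against 68.4, 70.2 and 72.2 TPM in WT (change -0.47, SE 0.06, adjusted p = 2.10e-04). CYP99A3 (LOC_Os04g09920), a P450 of the momilactone cluster on chromosome 4, had 9.72, 10.3 and 10.9 TPM in mutant line 1, against 14.1, 15.8 and 13.7 TPM in WT (change -0.46, SE 0.10, adjusted p = 0.0045), and CYP71Z7 (LOC_Os02g36190) changed by -0.45. These 4 passed in every alternative. The number called lower was 4 after median-ratio scaling, and also without replicate 1 of mutant line 1, replicate 2 of WT or replicate 3 of WT.

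Cellulose synthase subunits were called lower in 6 of 8 tested genes, beside 12.8% of all genes, with a median of -0.39, but no single call passed in every alternative. CESA4 (LOC_Os01g54620), CESA7 (LOC_Os10g32980) and CESA9 (LOC_Os09g25490) build the secondary wall and were near the level filter, with CESA7 at 0.528, 0.682 and 0.797 TPM in mutant line 1, against 1.94, 2.04 and 1.10 TPM in WT (change -0.67, SE 0.18, adjusted p = 0.018). Of the primary wall subunits, CESA3 (LOC_Os07g24190) had 16.3, 18.3 and 17.6 TPM in mutant line 1, against 20.7, 22.1 and 24.1 TPM in WT (change -0.34, SE 0.09, adjusted p = 0.017). CESA5 (LOC_Os03g62090) did not pass, with 1.89, 1.88 and 1.85 TPM, against 1.59, 1.72 and 1.56 TPM in WT. The number called lower was 1 without replicate 1 of mutant line 1, 4 without its replicate 2, 2 without its replicate 3, 1 without replicate 1 of WT, 0 without its replicate 2 and 2 without its replicate 3.

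**Figure D4:**
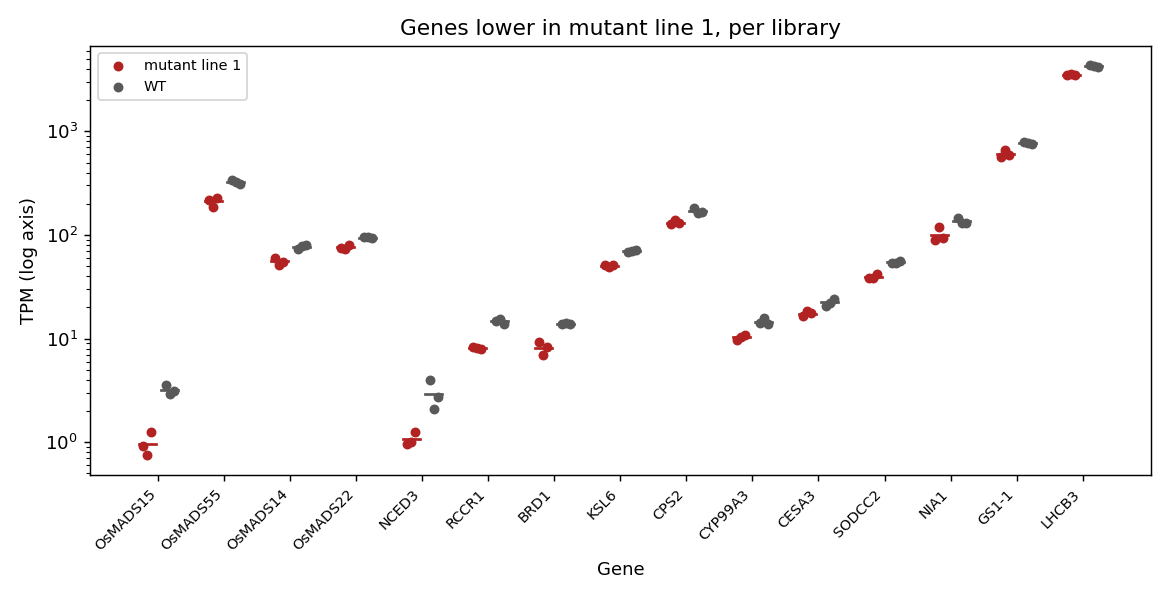
TPM of 15 named genes called lower, on a log axis, with the 3 libraries of mutant line 1 in red to the left of the 3 WT libraries in grey and a bar at each mean. All red points lie below all grey points for each gene shown, as in 24.2% of all tested genes. LHCB3 stood at 3466 to 3586 TPM in mutant line 1, against 4167 to 4326 TPM in WT.

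The named photosynthesis genes changed by small amounts, and many listed ones could not be named from the rice gene table. Called lower were 2 of 4 light-harvesting, 1 of 5 carbon fixation and 0 of 2 photosystem core genes, beside 12.8% of all genes. All 4 light-harvesting genes had every library of mutant line 1 below every WT library, as in 24.2% of all tested genes. Of these, LHCB2 (LOC_Os03g39610) and CAB2R (LOC_Os01g41710) changed by -0.13 and -0.08 and did not pass. Names were given for 4 of 16 light-harvesting, 2 of 12 photosystem core and 5 of 14 carbon fixation genes. Both named photosystem core genes, PsaH (LOC_Os05g48630) and PsbQ (LOC_Os07g36080), failed to pass. LHCB3 (LOC_Os07g37550), a subunit of the photosystem II antenna, had 3472, 3586 and 3466 TPM in mutant line 1, against 4326, 4235 and 4167 TPM in WT (change -0.27, SE 0.05, adjusted p = 0.0023), and the antenna gene CAB1R (LOC_Os09g17740) changed by -0.25; CAB1R lost its call after median-ratio scaling, after quantile normalization and with a constant prior variance. Of 5 carbon fixation genes cpFBPase (LOC_Os03g16050), the chloroplast fructose bisphosphatase, was lower and the other 4 did not pass. It had 702, 749.9 and 721 TPM, against 953, 893 and 868 TPM in WT (change -0.32, SE 0.06, adjusted p = 0.0016). The Rubisco small subunit gene RBCS2 (LOC_Os12g17600) had 13209.9, 13059 and 13631 TPM, against 12728, 11996 and 12141 TPM, and did not pass (adjusted p = 0.17).

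Chlorophyll synthesis genes showed 3 small rises among 12, beside 8.98% of all genes called higher, and 1 of the 3 passed in every alternative. That gene was HEMA1 (LOC_Os10g35840), glutamyl-tRNA reductase at the entry to the pathway, with 430.4, 454 and 446 TPM in mutant line 1, against 349.6, 358 and 355 TPM in WT (change 0.32, SE 0.05, adjusted p = 8.74e-04). CHLD (LOC_Os03g59640), a subunit of magnesium chelatase, changed by 0.26, and was not called without replicate 3 of either group (adjusted p up to 0.069). On the breakdown side RCCR1 (LOC_Os10g25030), the red chlorophyll catabolite reductase, had 8.26, 8.18 and 7.97 TPM in mutant line 1, against 14.7, 15.4 and 13.8 TPM in WT (change -0.77, SE 0.09, adjusted p = 6.26e-05). The stay-green gene SGR (LOC_Os09g36200) was lower by a small margin (change -0.27, adjusted p = 0.033), and leaving out any 1 of the 6 libraries ended the call, with an adjusted p of up to 0.107.

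Small falls were also called in the nitrogen, hormone, antioxidant and sucrose groups, beside 12.8% of all genes called lower. They were 2 of 6 tested nitrogen, 1 of 6 brassinosteroid, 1 of 4 strigolactone and tillering and 2 of 8 gibberellin genes. Of the antioxidant genes 3 of 11 were lower, and of the sucrose genes 2 of 9. The sucrose group also had 1 gene called higher, SUT4 (LOC_Os02g58080), which lost its call in 6 of the 14 alternatives. NIA1 (LOC_Os08g36480), a nitrate reductase, had 89.6, 118 and 93.9 TPM in mutant line 1, against 146, 129 and 129 TPM in WT (change -0.43, SE 0.10, adjusted p = 0.0075), and the cytosolic glutamine synthetase gene GS1-1 (LOC_Os02g50240) changed by -0.36. The chloroplast form GS2 (LOC_Os04g56400) had 2488, 2334 and 2353 TPM, against 2397, 2411 and 2421 TPM, and did not pass. BRD1 (LOC_Os03g40540), which makes the last steps of brassinosteroid synthesis, had 9.28, 6.97 and 8.22 TPM in mutant line 1, against 13.8, 14.2 and 13.8 TPM in WT (change -0.71, SE 0.11, adjusted p = 4.72e-04). OsD14 (LOC_Os03g10620), the strigolactone receptor, changed by -0.30. The superoxide dismutase genes SODCC2 (LOC_Os07g46990) and SODCC1 (LOC_Os03g22810) changed by -0.45 and -0.36, and the ascorbate peroxidase gene APX7 (LOC_Os04g35520) by -0.37. The sugar exporter SWEET13 (LOC_Os12g29220) changed by -0.33. SD1 (LOC_Os01g66100), the gibberellin oxidase gene of the Green Revolution dwarfs, changed by -0.40 and was not called without replicate 3 of mutant line 1 (adjusted p = 0.057).

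Among named genes of chromatin, silencing and replication, 1 was called, beside 21.8% of all genes. It was 1 of 4 tested histone methylation genes. None was called of the 2 Polycomb, 1 DNA methylation, 13 RNA silencing and 6 DNA replication and repair genes tested. The mutated genes OsATXR5 and OsATXR6 were not analysed here. Of the histone methylation genes, JMJ706 (LOC_Os10g42690), a demethylase of H3K9, was higher, with 14.4, 16.1 and 15.7 TPM in mutant line 1, against 8.29, 8.49 and 7.62 TPM in WT (change 0.84, SE 0.09, adjusted p = 3.74e-05). The H3K4 demethylase gene JMJ703 (LOC_Os05g10770), the H3K27 demethylase gene JMJ705 (LOC_Os01g67970) and the Trithorax-like gene TRX1 (LOC_Os09g04890) did not pass. The Polycomb genes EZ1 (LOC_Os03g19480), which encodes a catalytic subunit, and LHP1 (LOC_Os10g17770), a reader of the mark, did not pass; they changed by -0.05 (SE 0.09) and -0.10 (SE 0.11).

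None of the 13 tested RNA silencing genes was called by limma at the adjusted threshold, beside 21.8% of all genes, and their median was 0.05. The closest were DCL4 (LOC_Os04g43050), a Dicer, at 24.6, 27.7 and 24.0 TPM against 17.6, 22.1 and 22.1 TPM in WT (change 0.30, adjusted p = 0.058), and the Argonaute gene AGO1B (LOC_Os04g47870), at 30.2, 31.4 and 30.9 TPM against 34.6, 35.7 and 36.8 TPM (change -0.21, adjusted p = 0.058). An unadjusted p under 0.05 was reached by 4 of the 13, beside 6566 of all 19204 genes. With all 9 libraries in the fit 1 gene was called higher and 1 lower, 1 was called higher under either scaling alternative and with the replicate block, and 1 was called lower without replicate 1 of WT. Of the DNA methylation genes, DRM2 (LOC_Os03g02010), a de novo DNA methyltransferase, had 28.9, 28.5 and 29.1 TPM, against 28.2, 30.6 and 30.9 TPM, and MET1A (LOC_Os03g58400), MET1B (LOC_Os07g08500) and CMT3A (LOC_Os10g01570) were listed at 0 in all 6 libraries.

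None of 6 tested DNA replication and repair genes was called by limma, beside 21.8% of all genes. Of the 6, 0 had an unadjusted p under 0.05, beside 6566 of all 19204 genes. PCNA (LOC_Os02g56130), the sliding clamp of the replication fork, had 11.9, 13.6 and 11.9 TPM in mutant line 1, against 12.9, 12.7 and 11.7 TPM in WT (change 0.00, SE 0.10). MRE11 (LOC_Os04g54340), KU70 (LOC_Os07g08729) and KU80 (LOC_Os03g63920), which process DNA breaks, changed by -0.01, -0.09 and 0.08. The licensing genes MCM3 (LOC_Os05g39850), MCM4 (LOC_Os01g36390), MCM5 (LOC_Os02g55410), MCM6 (LOC_Os05g14590) and MCM7 (LOC_Os12g37400) were listed at 0 in all 6 libraries, and MCM2 (LOC_Os11g29380) had 0.779, 1.33 and 0.733 TPM in mutant line 1, against 1.05, 1.46 and 1.14 TPM in WT.

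Of the 6 tested clock genes 1 was called, beside 21.8% of all genes, and of the 9 tested flowering genes 1 was called. OsPRR95 (LOC_Os09g36220), the called clock gene, was lower by a small margin (change -0.19, SE 0.06, adjusted p = 0.037). It had 238, 261 and 245 TPM in mutant line 1, against 272, 292 and 286 TPM in WT. Its call was lost in 6 alternatives, with an adjusted p of up to 0.15. The clock gene OsLHY (LOC_Os08g06110) had 1718, 1934 and 1765 TPM in mutant line 1, against 1730.2, 1869 and 1874 TPM in WT, and OsGI (LOC_Os01g08700), which links the clock to day length, had 185, 206 and 193 TPM, against 182, 192 and 191 TPM; neither passed. The florigen gene Hd3a (LOC_Os06g06320) changed by 0.14 (SE 0.11) and did not pass. PHYB (LOC_Os03g19590), a red light receptor, was higher by 0.37 (SE 0.09, adjusted p = 0.01), with 31.1, 38.0 and 32.6 TPM in mutant line 1, against 24.3, 26.4 and 26.8 TPM in WT. Of the 6 tested phosphate genes none was called by limma, beside 21.8% of all genes. An unadjusted p under 0.05 was reached by 0 of them, beside 6566 of all 19204 genes.

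The further mutant line shares the WT libraries and took no part in the test, so its levels are given only as values. For several leading genes it lay near mutant line 1: TIFY10A had 600.5, 626 and 608 TPM in it, WRKY71 282, 276 and 268 TPM and NPR3 63.6, 61.4 and 62.3 TPM. For DREB1A it had 97.1, 107 and 87.0 TPM and for NAC5 90.3, 91.6 and 94.3 TPM, between the values of mutant line 1 and WT. Both small heat shock protein genes that rose in mutant line 1 were low in it, with HSP17.4 at 46.5, 41.2 and 45.9 TPM and HSP18.1 at 6.29, 7.06 and 7.99 TPM, below the WT libraries. JMJ706 reached 45.3, 44.1 and 44.4 TPM, above mutant line 1.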

How the data were processed

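RNA was sequenced from leaves of mutant line 1 and WT, 3 libraries each, with 3 libraries of a further mutant line. The submitters' processing notes name the tools fastp 0.20.1 and HISAT2; the genome build, the gene annotation and how TPM were counted are not given in the sources used here. The authors deposited 1 table of TPM per gene identifier, 55986 identifiers with each library summing to 1000000, so neither depth nor counting error is known. The lowest non-zero value in the 6 libraries was 0.319 TPM, and 10 genes were at 0 in 1 library but reached 5 TPM in another of the same group, so a 0 may be a missing estimate.

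Groups were taken from the sample titles. TPM were tested on log2(TPM + 1) with limma 3.58.1 in R 4.3.3, two-sided, with a variance trend and Benjamini-Hochberg adjustment over the 19204 genes whose mean over the 6 libraries reached 1 TPM; the fit was tested on simulated data. A gene is called at an adjusted p under 0.05. Genes at 0 in a whole group add no spread, so their standard errors are too small.

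Names were paired with identifiers from knowledge of the rice literature: 399 pairs were written, and the 271 used are those whose name stands in the RefSeq table of 39387 rice genes (assembly ASM3414082v1) on the same chromosome and in the same order. That table holds no identifiers of the deposited kind, so each pair rests on the literature, and no coordinates are given. Named in the text are the members with the largest called changes of each group, abundant members that did not pass, the largest rises and falls by identifier, and runs of at least 3 neighbouring identifiers. Members and groups were chosen with earlier results of these data known. The 14 alternatives were another pseudocount (0.1), no minimum, a minimum mean of 5 TPM, quantile and median-ratio scaling, all 9 libraries in the fit, a prior variance without a trend, a block for the replicate number, and each of the 6 libraries left out once.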

Additional observations from a re-analysis of the deposited data

How the results depend on the processing

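Under the 14 alternatives no gene named here was called in the opposite direction. Of the 88 called genes named by group or identifier, 63 passed under every alternative that tested them. The rises of the DREB1, WRKY, TIFY, NAC and heat shock protein genes were among the 63, and of the 25 genes that lost a call 22 changed by less than 0.5. The count of genes called lower was 1587 after median-ratio scaling, against 2454 as deposited; the cause was not tested. Leaving out 1 library gave 1461 to 2416 genes called lower, 1384 to 1713 called higher and 2845 to 4129 called in all. Falls of at least 1 numbered 186 with a pseudocount of 0.1 TPM, which counts low genes more, and 50 with a minimum mean of 5 TPM, where fewer genes were tested. A block for the replicate number gave 4332 called genes, 1792 of them higher. The titles do not say what the number stands for, and same-numbered libraries deviated from their group means together only weakly (r across genes 0.0698, 0.116 and 0.015 for numbers 1, 2 and 3); 2 of the 3 libraries of mutant line 1 correlated best with the WT library of their own number. Groups of 3 libraries limit every p-value to this spread, and without depth no counting error stands behind a low TPM.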
